A study of Danio rerio with 4 samples.

Results

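Embryonic globin genes and genes of red cells were measured in RNA from dissected zebrafish retinas. They are 5 embryonic hemoglobin genes, the beta chain genes hbbe1.1, hbbe2 and hbbe3 and the alpha chain genes hbae1 and hbae3, and 3 further red cell genes, alas2, gata1a and slc4a1a. Members were found by name in the authors' annotation, and all transcripts of their 10 gene identifiers were kept, which gave 18 of 46226 transcripts. All 18 had at least 1 count in control replicate 2 and in both knockdown libraries, and 16 had one in control replicate 1. A filter on low counts left 15 of the 18 for testing, among them all 8 member globin transcripts.

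There were 2 control libraries, from retinas given the Id2aMM morpholino, and 2 knockdown libraries, from retinas given the id2a morpholino, all at 48 hours post fertilization. A morpholino is a synthetic antisense oligomer that blocks translation or splicing of an RNA, and Id2a is a helix-loop-helix protein without a DNA-binding region of its own. The labels used here name no strain, transgene, route of delivery or number of embryos per library. A morpholino given to an early embryo reaches all of its cells, those of the blood included. The comparison asks which transcripts differ in the retina when id2a is targeted.

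Libraries held 42980929 to 54710062 counted alignments, at 1.89 to 2.01 transcripts hit per read. The targeted transcript was not lower: the id2a transcript with the smallest p stood at 32.7 and 20.8 CPM (counts scaled to library size, with TMM factors) in the controls and at 41.6 and 36.8 CPM in the knockdown, so the level of this RNA gives no check of the labels. All 25 retinal marker genes looked up were detected, with summed levels of 3364 and 2543 CPM in the controls and 1240 and 1831 CPM in the knockdown. Lens and epidermis markers were detected too, with values given further on. Over all 37012 tested transcripts the median log2 fold change was -0.04, and the libraries of the groups did not overlap for 60.7% of transcripts.

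Hemoglobin is a tetramer of alpha and beta chains, each holding a heme. In zebrafish the globin genes lie in a large cluster on chromosome 3 and a small one on chromosome 12, with alpha and beta genes side by side, and different members serve the embryo, the larva and the adult. The first red cells form in the trunk, enter the circulation as the heart starts to beat, and reach the eye through vessels around the lens and over its surface. In these cells gata1a switches on the red cell genes, alas2 starts heme synthesis, and slc4a1a encodes the anion exchanger of the cell membrane.

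One member, hbbe3, rose in the knockdown, and it rose 8.96-fold. The other 7 member globin transcripts lay above both controls in both knockdown libraries, by a factor of 1.15 to 1.49, but none passed the test. The 7 tested transcripts of alas2, gata1a and slc4a1a did not pass either, with ratios of 0.781 to 0.972. The 3 untested transcripts of alas2 and gata1a had ratios of 2.04 to 3.09, from at most 9 counts in a library. In numbers, 1 of 15 tested member transcripts was called higher and 0 lower by edgeR, at an adjusted p under 0.05, beside 7.03% called over all transcripts, 2.06% higher and 4.97% lower. Of the 15 tested member transcripts, 3 had an unadjusted p below 0.05 in edgeR, each of them with a higher mean in the knockdown. Over all 37012 tested transcripts, in either direction, 10223 had one. DESeq2 called 1 member transcript higher and 0 lower, beside 14.2% of all transcripts (5.64% higher, 8.52% lower). The median log2 fold change was 0.20 over the 15 member transcripts and 0.51 over the 8 globin transcripts.

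**Figure D1:**
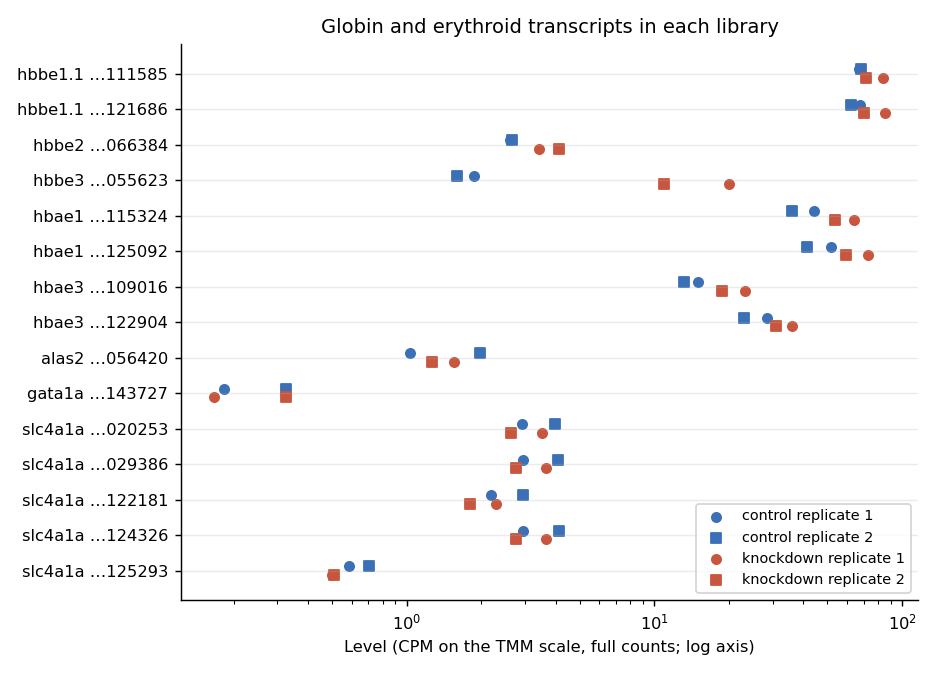
Level of each tested member transcript in each library, in CPM on a log axis, with controls in blue, knockdown in red, replicate 1 as circles and replicate 2 as squares. The hbbe3 points of the knockdown (20.0 and 10.9 CPM) lie far to the right of its controls (1.86 and 1.59 CPM), while slc4a1a, alas2 and gata1a points largely mix.

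How far a globin transcript shares its reads bears on each value. The authors' files give a full count, in which a read counts for every transcript it hits, and a split count, in which it is divided over them. For hbbe3 both agree exactly, at 100% over the 4 libraries, and for hbbe2 the split count was 98.8% of the full count. The chromosome 3 globins hold split counts of 39.3% to 70.4% of their full counts, so their transcripts are not independent of one another and the level of any 1 copy is uncertain. Split counts of the 5 slc4a1a transcripts, which come from 1 gene, were at most 26.7% of the full counts.

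**Figure D2:**
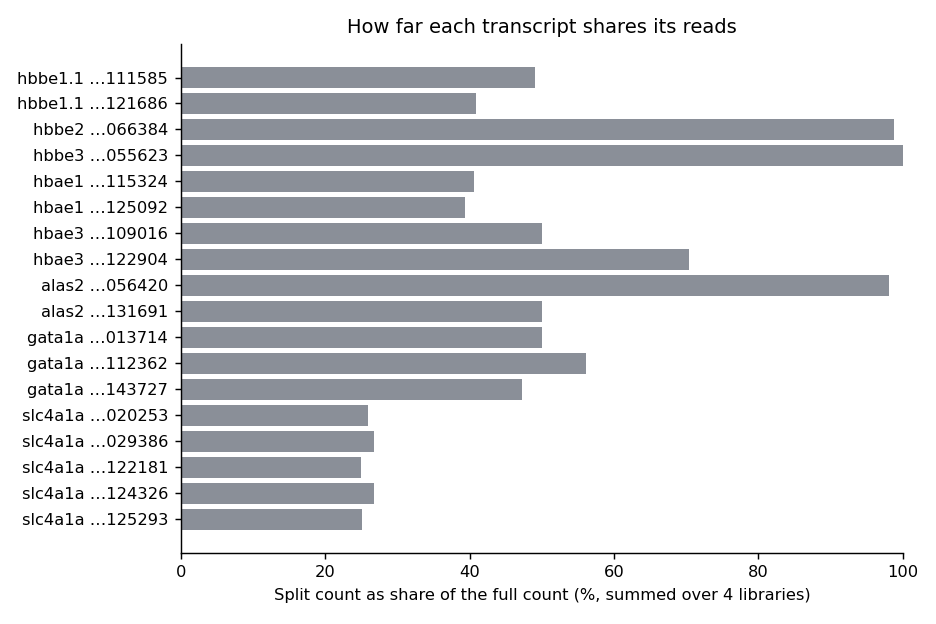
Split count as a percentage of the full count for each of the 18 member transcripts, summed over the 4 libraries; a bar at 100% marks a transcript that shares no read. The bars of hbbe3 (100%), hbbe2 (98.8%) and 1 alas2 transcript (98.1%) are near the full length, and the chromosome 3 globins and slc4a1a fall well short of it.

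The beta chain gene hbbe3 (ENSDART00000055623, chromosome 12) had 92 and 88 counts in control replicates 1 and 2 and 839 and 603 counts in knockdown replicates 1 and 2. On the CPM scale these were 1.86 and 1.59 against 20.0 and 10.9. Both knockdown libraries lay several-fold above both controls, with replicate 1 the higher of the pair. The means were 1.73 ± 0.190 and 15.5 ± 6.42 CPM (SD, n = 2 each), which gives 3.16 on the log2 scale (SE of the test 0.36; adjusted p = 0.0160, edgeR). The authors' deposited table gives 3.22 with an adjusted p of 0.00916, in a comparison where 8.89% of transcripts are under 0.05. Of the 762 transcripts called higher, 25, hbbe3 among them, had a log2 fold change at least as large as that of hbbe3. With a library left out, the log2 fold change was 2.68 to 3.54, and the call was lost without control replicate 1 (edgeR adjusted p = 0.159) and without control replicate 2 (edgeR adjusted p = 0.0543). With either control left out, edgeR called fewer of all transcripts too. In both of those fits hbbe3 also ranked lower by p than with all 4 libraries, so the general drop does not by itself account for its loss.

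The neighbouring beta chain gene hbbe2 (ENSDART00000066384, chromosome 12) had 129 and 147 counts in the controls and 143 and 227 in the knockdown. That is 2.61 and 2.66 CPM against 3.41 and 4.11 CPM. The groups did not overlap, but the step was small, with a log2 fold change of 0.52 (SE 0.30; adjusted p = 0.316, edgeR). In the controls hbbe3 reads numbered 0.733 and 0.601 for each hbbe2 read, and in the knockdown 5.97 and 2.67. The order of the pair was thus reversed in both knockdown libraries.

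The main embryonic beta chain gene, hbbe1.1 on chromosome 3, is present under 2 gene identifiers with 1 transcript each. ENSDART00000111585 stood at 67.3 and 68.0 CPM in the controls and 84.0 and 71.8 CPM in the knockdown, a log2 fold change of 0.20 (SE 0.21; adjusted p = 0.576, edgeR). ENSDART00000121686 stood at 67.6 and 62.1 CPM against 85.3 and 70.0 CPM, a log2 fold change of 0.26 (SE 0.22; adjusted p = 0.482, edgeR). In both, knockdown replicate 1 was highest and knockdown replicate 2 was only just above the controls. A further beta E1 copy, named si:busm1-118j2.5 by the authors and listed as a synonym of hbbe1.1 in RefSeq (GRCz12tu), had a log2 fold change of 0.32 (SE 0.22; adjusted p = 0.378, edgeR).

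Among the alpha chain members, hbae1 (chromosome 3, 2 gene identifiers) had the higher level in reads. Its transcript ENSDART00000125092 was at 51.4 and 41.5 CPM in the controls and at 73.1 and 59.4 CPM in the knockdown, a log2 fold change of 0.51 (SE 0.23; adjusted p = 0.197, edgeR). ENSDART00000115324 was at 44.3 and 35.8 CPM against 63.9 and 53.8 CPM, a log2 fold change of 0.56 (SE 0.23; adjusted p = 0.161, edgeR). In both groups replicate 1 was the higher library, and the gap between the groups was about as wide as that between replicates. When split reads were summed over each identifier, the log2 fold changes were 0.57 and 0.64, with edgeR adjusted p of 0.182 and 0.128. A further alpha copy that is not a member, named si:ch211-5k11.2 by the authors and hbae1.2 in the reference list, was higher still. It was at 55.0 and 45.9 CPM against 78.3 and 66.1 CPM, a log2 fold change of 0.52 (SE 0.22; adjusted p = 0.179, edgeR).

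The alpha chain gene hbae3 (chromosome 3) has 2 transcripts that share reads. ENSDART00000122904 was at 28.4 and 22.9 CPM in the controls and 35.9 and 30.9 CPM in the knockdown, a log2 fold change of 0.38 (SE 0.23; adjusted p = 0.332, edgeR). ENSDART00000109016 was at 15.1 and 13.2 CPM against 23.2 and 18.8 CPM, a log2 fold change of 0.57 (SE 0.24; adjusted p = 0.171, edgeR). Control replicate 1 lay closest to the knockdown in both. All 8 member globin transcripts thus had groups that did not overlap with the knockdown above, where 29.2% of all tested transcripts did, and for 6 of the 8 shared reads tie the values together.

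**Figure D3:**
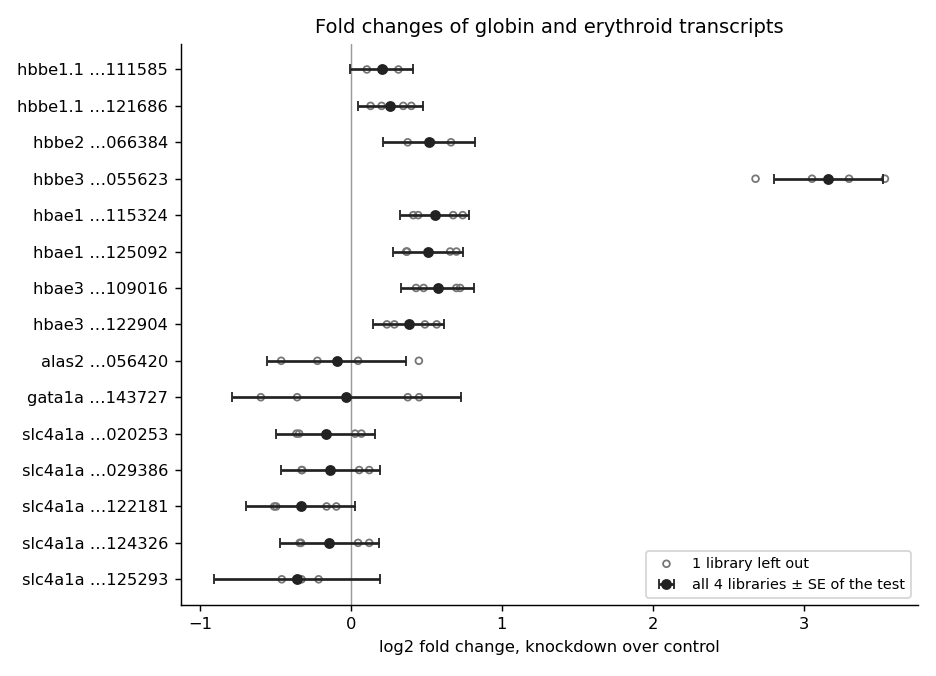
Log2 fold change, knockdown over control, of the 15 tested member transcripts, with the SE of the edgeR test as bars and open circles for fits with 1 library left out. The hbbe3 value of 3.16 stands apart at 2.68 to 3.54 over the left-out fits, while the other globins lie between 0.20 and 0.57. Over the left-out fits alas2, gata1a and 3 slc4a1a transcripts cross 0. The SE bars of alas2, gata1a, all 5 slc4a1a transcripts and hbbe1.1 ENSDART00000111585 reach across 0.

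Summed over all 21 hemoglobin transcripts in the annotation, members or not, the level was 397 and 352 CPM in the controls and 551 and 455 CPM in the knockdown. Both knockdown libraries lay above both controls, at a ratio of 1.34, and the exact two-sided permutation test gave p = 0.333, the smallest it can give with 2 against 2. Counting each read once, hemoglobin took 0.0356% and 0.0325% of the reads in the controls and 0.0510% and 0.0428% in the knockdown. Split reads gave a ratio of 1.43 with hbbe3 and 1.35 without it. In RNA from whole tissue, more red cells in the sample and more globin RNA in each cell cannot be told apart.

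Within the hemoglobin pool, the make-up shifted towards hbbe3. Of beta chain reads, each counted once, hbbe3 took 2.02% (exact 95% interval 1.63% to 2.47%) and 1.73% (1.39% to 2.12%) in control replicates 1 and 2. In the knockdown it took 14.7% (13.8% to 15.6%) and 9.78% (9.05% to 10.5%), which is 1.87% ± 0.209 against 12.2% ± 3.45 (SD, n = 2 each, exact permutation p = 0.333, the smallest possible). The intervals, which cover counting error only, do not meet between groups, and those of the knockdown libraries do not meet each other either. The share of hbbe2 was 2.77% and 2.86% in the controls and 2.45% and 3.66% in the knockdown, so here the groups overlapped. The share is a ratio within a library, so no scaling factor enters it. With full counts in the place of split counts, which count the shared chromosome 3 reads more than once, the hbbe3 shares were 0.920% and 0.826% against 7.25% and 4.85%.

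**Figure D4:**
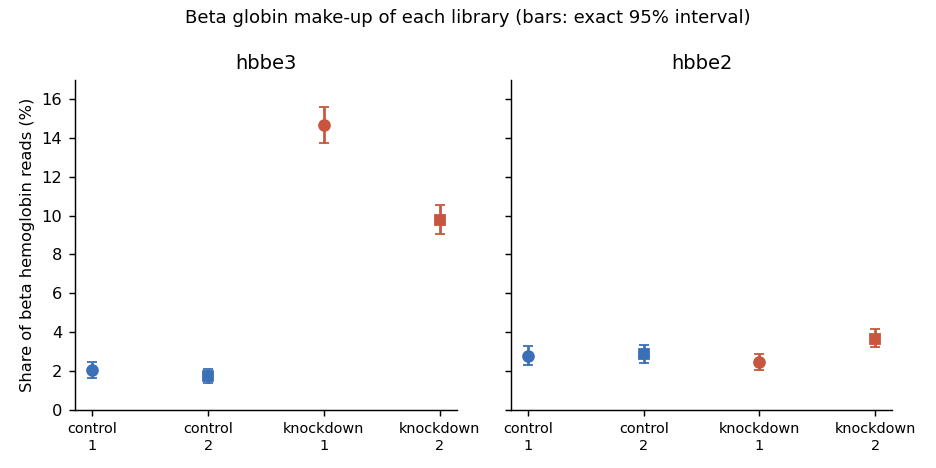
Share of hbbe3 (left) and of hbbe2 (right) among the beta hemoglobin reads of each library, in percent, with exact 95% intervals that cover counting error only. For hbbe3 the knockdown points are at 14.7% and 9.78% against 2.02% and 1.73% in the controls, whereas hbbe2 stays between 2.45% and 3.66%.

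The chromosome 12 cluster as a whole showed the same step, and it rested on hbbe3. Its 6 transcripts held 2.51% and 2.67% of hemoglobin reads in the controls and 9.08% and 7.09% in the knockdown. Without hbbe3 these shares were 1.50% and 1.73% against 1.52% and 2.13%, and the groups overlapped. Apart from hbbe2, the other genes of the cluster were barely detected. The gene HBM, called hbae4 in the reference list, had 4 and 4 counts against 1 and 8, and the most abundant transcript of hbz, called hbae5 there, had 8 and 9 counts against 13 and 11. With reads split, alpha chain reads made up 49.5% and 44.7% of hemoglobin reads in the controls and 47.6% and 48.1% in the knockdown, which overlapped. With full counts these shares were 49.0% and 45.3% against 49.9% and 50.5%, higher in both knockdown libraries. Leaving out hbbe3, split alpha reads numbered 1.00 and 0.823 for each beta read in the controls and 1.07 and 1.03 in the knockdown. There too the groups did not overlap (exact permutation p = 0.333, the smallest possible). Annotated hemoglobin transcripts named HBE1 or si:ch211-5k11.8 had at most 2 counts in any library.

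Per length, the globins can also be set against one another. On the RPKM scale (reads scaled by transcript length and depth), with reads split and mean control then mean knockdown level given, the hbbe1.1 transcripts stood at 115 and 131 RPKM and at 81.3 and 99.8 RPKM. The hbae1 transcripts stood at 63.6 and 93.9 RPKM and at 66.8 and 96.4 RPKM, and the hbae3 transcripts at 60.1 and 77.4 RPKM and at 27.3 and 39.6 RPKM. The minor beta genes were far lower in the controls, at 8.25 RPKM for hbbe2 and 6.14 RPKM for hbbe3. In the knockdown hbbe2 was at 12.3 RPKM, while hbbe3, at 73.0 and 39.3 RPKM in the 2 libraries, had moved up into the range of the single hbae3 transcripts. It stayed below both hbae1 transcripts, whose lowest knockdown level was 85.8 RPKM. In the controls, the hbae1 transcripts and hbae3 ENSDART00000122904 overlapped. Control levels of hbbe2 did not meet those of hbbe3. The knockdown levels of hbbe3 overlapped those of hbae3 ENSDART00000109016 (44.8 and 34.4 RPKM). With those of ENSDART00000122904 (81.9 and 73.0 RPKM) they only just met, and only across libraries. Within each knockdown library, hbbe3 lay above the first of these 2 hbae3 transcripts and below the second. Both transcripts divide the reads of the same gene, so hbae3 as a gene stood higher than either, and that level was not set against hbbe3.

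The enzyme of the first step of heme synthesis in red cells, alas2 (chromosome 8), was sparse. ENSDART00000056420 had 51 and 109 counts in the controls and 65 and 70 in the knockdown, which is 1.03 and 1.97 CPM against 1.55 and 1.27 CPM. The controls were the lowest and the highest of the 4 libraries, so the groups overlapped, with a log2 fold change of -0.10 (SE 0.46; adjusted p = 0.918, edgeR). Its second transcript, ENSDART00000131691, had 0 and 3 counts against 2 and 4 and was not tested. That SE leaves changes of a size like those of the alpha globins undetectable for alas2 at this depth.

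The transcription factor gene gata1a (chromosome 11), which directs the red cell programme, was close to the limit of detection. ENSDART00000143727, the only one of its 3 transcripts that could be tested, had 9 and 18 counts in the controls and 7 and 18 in the knockdown, a log2 fold change of -0.03 (SE 0.76; adjusted p = 0.986, edgeR). The untested transcripts ENSDART00000112362 and ENSDART00000013714 had 2 and 8 counts against 9 and 9, and 0 and 3 counts against 4 and 4. Summed over its transcripts with reads split, the level was 0.241 and 0.504 CPM against 0.475 and 0.546 CPM, and the groups overlapped.

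The anion exchanger gene slc4a1a (chromosome 3) had 5 transcripts, all tested. The most abundant, ENSDART00000124326, was at 2.95 and 4.12 CPM in the controls and 3.65 and 2.77 CPM in the knockdown, a log2 fold change of -0.14 (SE 0.33; adjusted p = 0.817, edgeR). The transcript with the smallest p, ENSDART00000122181, was at 2.18 and 2.95 CPM against 2.29 and 1.79 CPM, a log2 fold change of -0.33 (SE 0.36; adjusted p = 0.595, edgeR). Control replicate 2 was the highest library for all 5, and log2 fold changes ran from -0.36 to -0.14. The knockdown lay below the controls without overlap, as for 31.5% of all tested transcripts, in ENSDART00000125293 alone, at 0.586 and 0.705 CPM against 0.501 and 0.507 CPM. With reads split and summed over the gene, slc4a1a stood at 5.77 and 7.76 CPM in the controls and 7.40 and 5.53 CPM in the knockdown. Against the hemoglobin sum of the same library it was 0.0162 and 0.0247 in the controls and 0.0140 and 0.0129 in the knockdown, lower in both knockdown libraries (exact permutation p = 0.333, the smallest possible). For alas2 the same ratio was 0.00566 and 0.0118 in the controls and 0.00595 and 0.00581 in the knockdown, and the groups overlapped.

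Genes next to the clusters, taken in RefSeq order (GRCz12tu), were looked up after the member values were seen. The chromosome 12 order is hbae4, hbbe3, hbbe2 and hbae5. Of the 4 protein-coding genes on each side, rhbdf1b, aqp8a.2, aqp8a.1 and arhgap17a were not tested and have no value here. The other 4 were tested, and 0 passed in edgeR. They were ubald1a (fam100aa in the authors' table) at a log2 fold change of -1.26 (edgeR adjusted p = 0.0545), mgrn1a at -0.49, foxj1b at -0.78 and lcmt1 at 0.35. Beside the chromosome 3 cluster, 5 genes were tested and 1 passed, aanat2, which encodes an enzyme of melatonin synthesis and fell by 2.65 on the log2 scale (edgeR adjusted p = 0.0295).

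Genes that serve red cells outside the globin loci were looked up in 4 lists, chosen with earlier results of these data known. Of 69 tested genes in them, 5 were higher, 6 lower and 58 did not pass, or 15.9% called beside 8.06% of all 20875 tested genes (2.37% higher, 5.7% lower). The 5 higher calls became 0 without control replicate 1, 0 without control replicate 2 and 2 without knockdown replicate 1. The 6 lower calls became 0 and 2 without control replicates 1 and 2. Among the called genes named below, alas1, cpox, EPB49 and stat5.1 also lost their calls without knockdown replicate 1, and alas1 and klf4 without knockdown replicate 2. Many of these genes are also used outside red cells.

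In heme synthesis and transport, edgeR called 2 of 19 genes higher and 0 lower, with a median of 0.45 on the log2 scale. At an unadjusted edgeR p below 0.05, 5 of the 19 had a higher mean in the knockdown and 3 a lower one. The gene cpox, whose enzyme acts late in heme synthesis, was at 2.83 and 3.04 CPM in the controls and 9.59 and 6.80 CPM in the knockdown, a log2 fold change of 1.48 (SE 0.29; adjusted p = 0.0320, edgeR). The housekeeping form of the alas2 enzyme, alas1, was at 22.7 and 21.5 CPM against 43.9 and 39.0 CPM, a log2 fold change of 0.91 (SE 0.22; adjusted p = 0.0485, edgeR). The alas1 call lay close to the threshold and was lost with any of the 4 libraries left out (adjusted p = 0.0541 to 0.179, edgeR). The difference between the fold changes of alas1 and alas2 was not tested.

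In iron uptake and storage, edgeR called 1 of 8 genes higher and 0 lower (1 had a lower mean with an unadjusted p below 0.05), with a median of 0.40. The iron transporter gene slc11a2 was at 2.69 and 2.71 CPM in the controls and 10.6 and 8.84 CPM in the knockdown, a log2 fold change of 1.85 (SE 0.27; adjusted p = 0.0213, edgeR). Its knockdown libraries lay more than 3 times above its controls.

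In the list of membrane proteins and enzymes of the red cell, 0 of 21 genes were higher and 4 were lower in edgeR. At an unadjusted edgeR p below 0.05, 0 were higher and 6 lower, and the median was -0.56. The carbonic anhydrase gene cahz went from 7.58 and 7.25 CPM to 1.50 and 1.54 CPM, a log2 fold change of -2.28 (SE 0.29; adjusted p = 0.0194, edgeR). The other lower genes were rhbg, an ammonia channel, at -1.83, add2, an adducin of the membrane skeleton, at -2.14, and EPB49, an actin bundling protein, at -1.44, with edgeR adjusted p of 0.0234 to 0.0436. None of the 4 is known from red cells alone, and a place in the list, as for rhbg, does not show a role in red cells. The Rh-associated glycoprotein gene rhag, a red cell membrane gene, was at 8.29 and 7.51 CPM against 4.56 and 7.54 CPM, and gave no call (edgeR adjusted p = 0.467).

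Of 21 erythroid transcription and signalling genes, 2 were higher and 2 lower, with a median of -0.19. The gene cmyb, of the Myb family of transcription factors, went from 25.3 and 25.5 CPM to 70.8 and 59.5 CPM, a log2 fold change of 1.36 (SE 0.22; adjusted p = 0.0244, edgeR). The signal transducer stat5.1 had a log2 fold change of 1.75 (SE 0.40; adjusted p = 0.0430, edgeR). Those that fell were sox6, at a log2 fold change of -1.46 (SE 0.24; adjusted p = 0.0257, edgeR), and a gene named klf4 in the authors' table and klf17 in the reference list, at -2.88 (SE 0.60; adjusted p = 0.0356, edgeR). Partners of gata1a gave no call, such as lmo2 at -0.08 and zfpm1 at 0.04.

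**Figure D5:**
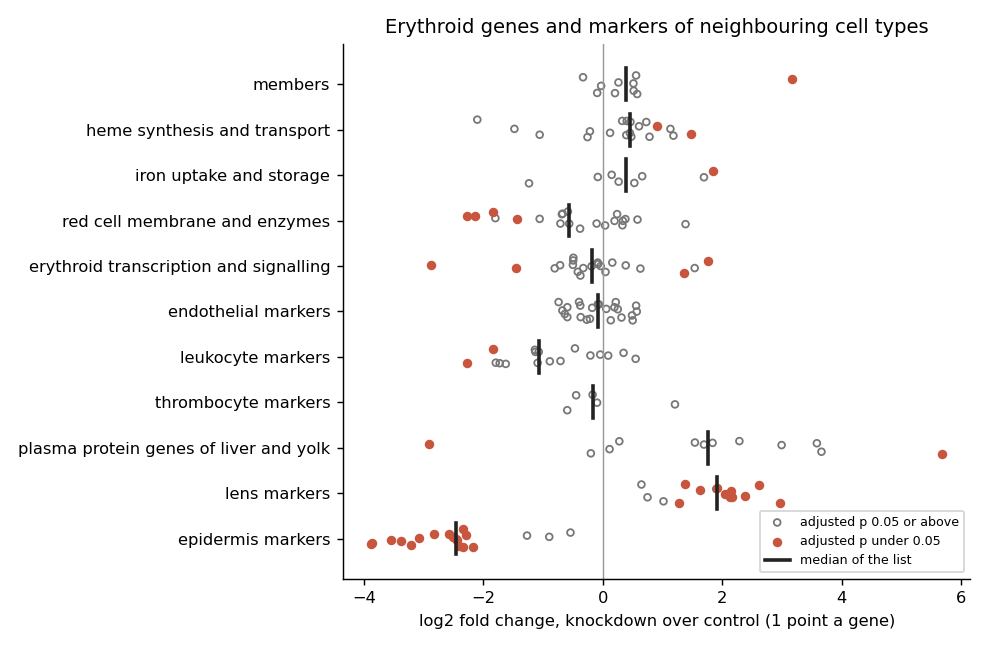
Log2 fold change, knockdown over control, of each tested gene in the erythroid lists and in marker lists of other cell types, with red points at an edgeR adjusted p under 0.05, open points otherwise and a bar at the median. Among the members only hbbe3 is red, the endothelial genes centre on -0.08, and the lens and epidermis lists stand at medians of 1.90 and -2.46.

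Markers of other cells that the dissected tissue could hold were looked up in the same way. Endothelial genes, which mark the vessels that carry red cells, summed to 153 and 155 CPM in the controls and 148 and 161 CPM in the knockdown, and 0 of 23 passed in edgeR (1 at an unadjusted p under 0.05, lower). The vessel marker sums thus overlapped between the groups, and their relation to the hemoglobin sums was not tested. Leukocyte genes gave 2 lower calls of 17, HCLS1 and mpeg1, with 0 higher. At an unadjusted edgeR p below 0.05, 7 were lower and 0 higher. Their median was -1.07, with overlapping sums of 122 and 86.6 against 115 and 96.9 CPM. Both calls were lost without control replicate 1 and without control replicate 2. Thrombocyte genes gave 0 calls of 5 (0 at an unadjusted p under 0.05) and sums of 15.2 and 15.1 against 14.2 and 10.9 CPM.

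By edgeR, 11 of 15 lens markers were higher and 0 lower (14 higher and 0 lower at an unadjusted p below 0.05). Their sums were 460 and 572 CPM in the controls and 2426 and 1402 CPM in the knockdown. Of 19 epidermis markers 16 were lower and 0 higher, with sums of 2345 and 2500 CPM against 703 and 246 CPM. Without control replicate 1 the lens and epidermis calls both became 0, and without control replicate 2 they became 6 and 0. Plasma protein genes of liver and yolk summed to 33.0 and 30.4 CPM against 99.2 and 36.8 CPM, with 1 of 12 higher, fetub, which was at 8.61 and 0.417 CPM in knockdown replicates 1 and 2, and 1 lower, rbp4. The list's median was 1.76, with 6 of 12 higher at an unadjusted p below 0.05 in edgeR. Of all 37012 tested transcripts, 10223 reached that level in either direction. A listed gene counts by its transcript with the smallest p, so these 2 counts are not of the same kind. The count of 1 higher in the list rested on the settings. It was 11 without knockdown replicate 2, 6 with no filter, 4 with the replicate number as a block, and 0 with the stricter filter, without control replicate 1 or without control replicate 2. Knockdown replicate 1, the library with the most hbbe3, also held the highest lens and plasma protein sums. No marker that could be matched by name was at 0 counts in all libraries. Some listed symbols had no match, and of 30 plasma protein symbols 24 were matched. An unmatched gene, without reads or under another name, could not be counted at 0. The part of lens, epidermis or plasma genes in the globin levels was not tested. Of the remaining lists, 0 of 13 pigment epithelium genes passed in edgeR (1 at an unadjusted p under 0.05), 2 of 20 muscle genes were lower, and 7 of 25 retinal genes were lower and 2 higher. Globins other than hemoglobin gave 0 calls of 3 in edgeR (1 at an unadjusted p under 0.05), with cygb2, a cytoglobin, at -1.50 and the myoglobin gene mb at 0.34.

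By likeness of profile over the 4 libraries, the transcripts nearest to the median profile of the member globins, among 20853 candidates, were grb10a, hip1, NOA1, fgfr3 and WASF2. Their distances were 0.0418 to 0.0486 in log2 units, where distance is Euclidean between centred profiles, and grb10a for example was at 16.2 and 13.4 CPM against 20.8 and 18.4 CPM. None of the 5 passed the test. The profile of hbbe3, chosen for this after its values were seen, was nearest to cdkn1a, a cell cycle inhibitor gene, at a distance of 0.292. That gene stood at 3.22 and 2.30 CPM in the controls and 25.6 and 16.4 CPM in the knockdown. The next were RNF180 (1 of 2) at 0.383 and RPS27L at 0.527. With 4 libraries in 2 groups, likeness mainly says that the size of the step and the order of the knockdown libraries were alike.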

How the data were processed

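Poly-A selected RNA from 1 microgram of total RNA was sequenced in 4 libraries, per the labels' protocols. Per library, the deposited tables give counts of alignments to each transcript of Ensembl release 66 cDNA, in whole numbers, and estimated counts that divide a read among its transcripts, per the file headers and the names of the files. The authors also deposited a score per transcript, equal to 1000 times RPKM (98.8% to 99.7% of values within 1 unit), from which transcript lengths were solved, and a comparison with log2 fold changes and adjusted p-values, made with DESeq per the submitters' processing notes. The settings of the alignment were not given in the sources.

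Full counts of 1 mate were tested with the quasi-likelihood F-test of edgeR 4.0.16 (R 4.3.3; filter by expression, TMM scaling, no block, Benjamini-Hochberg over 37012 transcripts, threshold 0.05), after a test on simulated data. The SE is the log2 fold change over the square root of F. Sums and shares were compared by exact permutation over libraries, with split counts rounded for binomial intervals. Alternatives were another scaling, other filters, DESeq2 1.42.0, split reads, both mates, scaling without hemoglobin transcripts, a replicate block and each library left out.

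The members and lists were chosen with earlier results of these data known. A listed gene was represented by its transcript with the smallest p. Named were all members, up to 4 called genes of each erythroid list by p, and the 5 nearest profiles averaging at least 2 CPM, with 0.1 CPM added; other names were chosen after their values were seen. The labels call the replicates biological and name no batch, and counting is not stated to use strand.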

Additional observations from a re-analysis of the deposited data

How the results depend on the processing

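The fold change of hbbe3 passed the 0.05 threshold under every alternative fit run apart from 2 that leave out a library. Its log2 fold change was 3.10 to 3.26 over the settings with all 4 libraries, and 2.68 to 3.54 with a library left out, where edgeR gave an adjusted p of 0.159 without control replicate 1 and 0.0543 without control replicate 2. The count of member genes and of member transcripts passing was then 0 to 1, and it was 0 at a threshold of 0.01. These 2 thresholds (0.10 and 0.01) and the alternatives for the hbbe3 share were chosen after seeing the data. The count over all transcripts, 2603, was 5028 with no filter, 5238 with DESeq2, 1607 genes with split reads summed per gene, 6023 at a threshold of 0.10, 8 at 0.01 and 0 to 4910 with a library left out. Over the 4 erythroid lists, the calls with a library left out were 0 to 6 higher and 0 to 8 lower, against 5 and 6. The difference in the hbbe3 share of beta chain reads, 10.3 percentage points, was 5.18 with full counts, which count shared chromosome 3 reads more than once, and 7.90 to 12.8 with a library left out. The log2 ratio of summed hemoglobin was 0.43, and 0.28 to 0.56 with a library left out.

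The other 14 tested member transcripts passed in 0 of 178 alternative values in edgeR or DESeq2 (smallest adjusted p = 0.127), and 13 of these values changed sign, all in alas2, gata1a and slc4a1a. With a library left out, log2 fold changes were -0.46 to 0.45 for alas2 ENSDART00000056420, -0.60 to 0.45 for gata1a ENSDART00000143727, -0.36 to 0.069 for slc4a1a ENSDART00000020253, -0.33 to 0.12 for ENSDART00000029386 and -0.34 to 0.12 for ENSDART00000124326. The 178 values are not separate checks, since many of the transcripts share reads. With split reads summed per gene, each transcript of a gene carries the same value. In that setting alas2 was at 0.0060 and gata1a at 0.48. With reads split per transcript ENSDART00000029386 was at 0.0093. The cause of the changes of sign was not tested.

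The replicate numbers were not treated as pairing the libraries, since there are only 2 pairs and same-numbered libraries did not deviate together (correlation -0.02 over transcripts). With the replicate block 3651 transcripts passed, the member count stayed at 1 and hbbe3 had a log2 fold change of 3.10 (edgeR adjusted p = 0.00194). Where a library is left out, the lone sample is assumed to vary like the other group. With 2 libraries a group and at most 109 counts of any alas2 or gata1a transcript in a library, changes of moderate size in these genes were not detectable.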
